A study of Homo sapiens with 12 samples.

Results

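The transcripts of 36 p53 target genes were followed in HCT116 cells with and without degradation of SDS22, the PP1 regulatory subunit encoded by PPP1R7. The genes were listed by name as known targets of p53, and the list was chosen with earlier results of these data known. All 36 were found by symbol among the 58233 genes of the count table. Of these, 34 had enough reads to be tested, beside 16657 tested genes in all. SPATA18 and EDA2R had too few.

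HCT116 is a human colorectal carcinoma cell line. The parental line, HCT116 Tet-OsTIR1, carries the rice F-box protein TIR1 at the AAVS1 locus under a tetracycline-inducible promoter. The SDS22-degron line was made from it, and its endogenous SDS22 bears the mAID-mClover tag. Cultures of each line were kept without additions or received, over 48 h, doxycycline (Dox) at 2 µg/ml, which switches on TIR1, and the auxin IAA at 500 µM, which brings tagged SDS22 to a ubiquitin ligase. Each of the 4 conditions had 3 libraries, described as independent experiments, which makes 12 libraries. All 12 carry the TIR1 transgene, and the treated parental libraries therefore show what Dox and IAA do without a degron. The SDS22-degron line was expanded from colonies that were selected in hygromycin and G418, so that its standing difference from the parental line holds the tag, the resistance cassettes and the history of the selected cells, which cannot be told apart here. The tag acts on the protein, and PPP1R7 mRNA, at 40.1 to 51.2 CPM (counts scaled to a common library size) in every library, is no measure of the depletion.

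The transcription factor p53 is held at a low level by the ubiquitin ligase MDM2 and is released from it after DNA damage and other stresses. It then binds response elements made of a pair of decamers and switches on genes for cell-cycle arrest, DNA repair, cell death and metabolism, as well as its own inhibitors. Many of its targets also answer to other transcription factors, so that a change of a target is not by itself a measurement of p53. Neither p53 protein nor its binding to DNA was measured in these libraries.

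Where p53 could contact the start of its targets was looked at in RefSeq promoters (GRCh38.p14, 250 bases before to 50 after the start site). Of the 36 genes, 31 had a promoter in this table, and TP53INP1, PHLDA3, RRM2B, ASCC3 and GREB1 did not. Only the first promoter listed for each gene was searched, for the targets and for all promoters alike, so that other start sites were not covered. The p53 consensus decamer is its own reverse complement, so that 1 search covers both strands. It was present in 4 of 31 promoters (12.9%), beside 6.54% of 27305 promoters of the same length. None of the 31 held a pair of decamers up to 13 bases apart, which was present in 0.0293% of all promoters. Every letter had to match the consensus, so that a decamer or a pair with a mismatch was not counted. In the gene coordinates of the count table, each of the 4 matching stretches lies within the span of its gene. The distances given below therefore hold only for the RefSeq start site that was searched. The 4 stretches are shown because they are the only matches that these windows hold. Each has 30 bases on the strand of the gene, with the decamer in capitals.
PLK2 (chr5:58460199-58460228, minus strand, decamer starting 132 bases before the start site): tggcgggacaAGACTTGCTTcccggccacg
RPS27L (chr15:63157517-63157546, minus strand, 59 bases before): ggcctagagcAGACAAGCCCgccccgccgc
AEN (chr15:88621296-88621325, plus strand, 34 bases before): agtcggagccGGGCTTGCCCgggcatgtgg
FDXR (chr17:74872995-74873024, minus strand, 11 bases before): ggcgggcccgggcaggagcGGGCTTGCCCt

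A match to letters is a description and not a binding site. No match says nothing about elements further away, at other start sites or with mismatched letters, which were not searched. These 4 genes were all called higher in untreated SDS22-degron than in untreated parental cells, as were 50% of the tested targets and 13.2% of all tested genes. The call of FDXR was lost in 5 of 23 alternative fits. Among the targets called below for a different Dox/IAA response in the 2 lines, 7 had a promoter here, and 0 of the 7 held the decamer. A link of the decamer with either result was not tested. The values of the 4 decamer genes follow with the other targets. Their responses to Dox/IAA within the SDS22-degron line were not alike, since RPS27L rose, PLK2 and AEN fell and FDXR did not pass the test.

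Library totals ran from 12133915 to 14657508 counted reads (median 12662965), and each tested target had at least 5.52 CPM in every library. Colorectal epithelial markers were high in all groups, with a sum over 7 genes (EPCAM, keratins and others) of 2656 to 4218 CPM, most of it from keratins. All 6 tested epithelial markers had a positive interaction, defined below (median 0.23), beside 49.8% of all tested genes. CDH1, which encodes E-cadherin, passed the test (0.64, adjusted p = 0.029), beside 6.03% of all tested genes that were higher. Its means were 94.5 CPM in untreated and 189 CPM in treated SDS22-degron cells. VIL1, a villin gene on that list, was near 0, with group means of at most 0.0509 CPM. Markers of leukocytes summed to at most 0.577 CPM over 4 genes, with CD3E at 0 throughout. The 5 fibroblast markers summed to 9.96 to 13.9 CPM in untreated and 17.3 to 22.9 CPM in treated parental cells, and to 13.8 to 15.8 and 21.3 to 31.8 CPM in the SDS22-degron line, with COL1A2 and DCN at 0 throughout. COL1A1 made up nearly all of this sum, and the group means of COL3A1 and PDGFRB were at most 0.162 CPM and not higher with Dox/IAA in either line. The 3 endothelial markers summed to at most 0.802 CPM in the other groups and to 1.07 to 1.73 CPM in treated SDS22-degron cells, with CDH5 at 0 in every library. The part of these marker differences in the results was not tested. Values are means over the cells of a culture, and in such bulk RNA a change in the share of cells that express a gene and a change in RNA per cell cannot be told apart.

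The p53 targets as a group were higher in the SDS22-degron line before any treatment, and their median was higher again after Dox/IAA in this line. The median of the 34 targets, as log2 CPM relative to the mean of untreated parental cells, was -0.06, 0.09 and -0.03 in the 3 untreated parental libraries and -0.11, -0.05 and 0.01 in the treated parental libraries. It was 0.30, 0.36 and 0.32 in the untreated and 0.43, 0.61 and 0.43 in the treated SDS22-degron libraries. The 4 groups are ordered without overlap between the lines, and also between untreated and treated SDS22-degron cells, whereas the treated parental libraries overlap with the untreated ones. The SD of this median within groups was 0.0719. The same median over all tested genes stayed between -0.01 and 0.01 in every library.

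**Figure D1:**
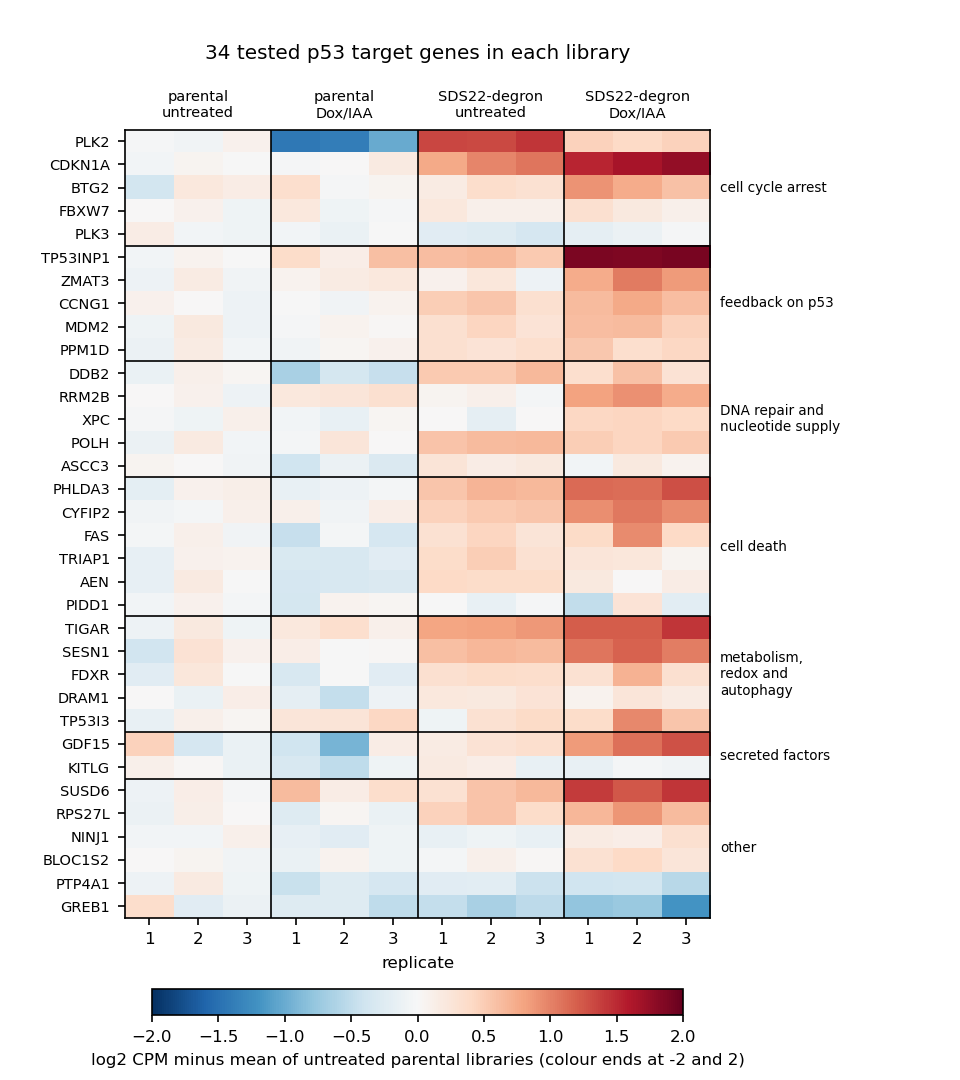
Level of the 34 tested p53 targets (rows, grouped by role) in each of the 12 libraries (columns), as log2 CPM minus the mean of the untreated parental libraries (colour). The SDS22-degron columns are mostly red, with CDKN1A and TP53INP1 darkest after Dox/IAA, and PLK2 is blue in treated parental cells.

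The difference between the lines was separated from the response to Dox/IAA in a single fit with 4 group means. The baseline is untreated SDS22-degron minus untreated parental cells. The response is treated minus untreated cells within a line, and the interaction is the response of the SDS22-degron line minus that of the parental line, from which the baseline drops out. The comparison of the treated lines is the sum of baseline and interaction. These comparisons share libraries, and their values for a gene are given side by side and not as independent evidence. A gene is called higher or lower at an adjusted p under 0.05.

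At baseline, 17 of the 34 targets were higher in the SDS22-degron line (50%), beside 13.2% of all tested genes, and 3 were lower (GREB1, PLK3 and PTP4A1), beside 15%. The median log2 fold change was 0.32 for the targets and 0.00 for all tested genes, and 28 of 34 were above 0. In parental cells, Dox/IAA raised 3 targets (RRM2B, SUSD6 and TP53INP1, 8.82%), beside 15.9% of all genes. It lowered 7 (AEN, ASCC3, DDB2, KITLG, PLK2, PTP4A1 and TRIAP1, 20.6%), beside 15.7%. The median response of the targets was -0.06.

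In the SDS22-degron line, Dox/IAA raised 18 of 34 targets (52.9%), beside 26% of all tested genes, and lowered 3 (AEN, PLK2 and TRIAP1), beside 25.5%. The median response was 0.25. All 3 genes that rose in parental cells were among the 18 that rose in the SDS22-degron line (100% of 3 and 16.7% of 18). All 3 genes that fell in the SDS22-degron line also fell in parental cells (42.9% of 7 and 100% of 3). The same overlap was not counted over all tested genes, so that these shares do not set the targets apart from other genes. The interaction was higher for 10 of 34 targets (29.4%), beside 6.03% of all genes, and lower for 0, beside 8.35%. The count of 0 in this edgeR test was also 0 at an unadjusted p under 0.05 and with DESeq2. These 10 are GDF15, TP53INP1, ZMAT3, PHLDA3, CDKN1A, RRM2B, XPC, NINJ1, CYFIP2 and BLOC1S2. Of the 34 targets, 33 had an interaction above 0, with POLH as the exception, and the median was 0.31 beside 0.00 for all genes, of which 49.8% were above 0. With other scalings or a library left out, 29 to 33 of the 34 were above 0, and the lowest count was found without parental untreated replicate 2.

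Few of these differences exceeded 2-fold. With an absolute log2 fold change above 1 and an unadjusted p under 0.05, the cut-off used in the study, the baseline left 1 higher target (PLK2, beside 2.84% of all genes) and 0 lower (beside 1.3%). The parental response left 0 raised targets (beside 2.35%) and 1 lowered (PLK2, beside 0.792%). The response of the SDS22-degron line left 1 raised (TP53INP1, beside 3.82%) and 0 lowered (beside 4.02%), and the interaction left 1 higher (GDF15, beside 1.15%) and 0 lower (beside 2.46%). Between the treated lines, where baseline and interaction add up, 7 targets were higher at this cut-off (20.6%, beside 3.25%) and 0 were lower (beside 3.38%). These 7 are CDKN1A, GDF15, PHLDA3, PLK2, SESN1, TIGAR and TP53INP1. DESeq2 gave the same counts at this cut-off in every comparison. By the adjusted p alone, 27 of 34 (79.4%) were higher between the treated lines, beside 21.8%, and 1 was lower (GREB1), beside 23.1%.

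**Figure D2:**
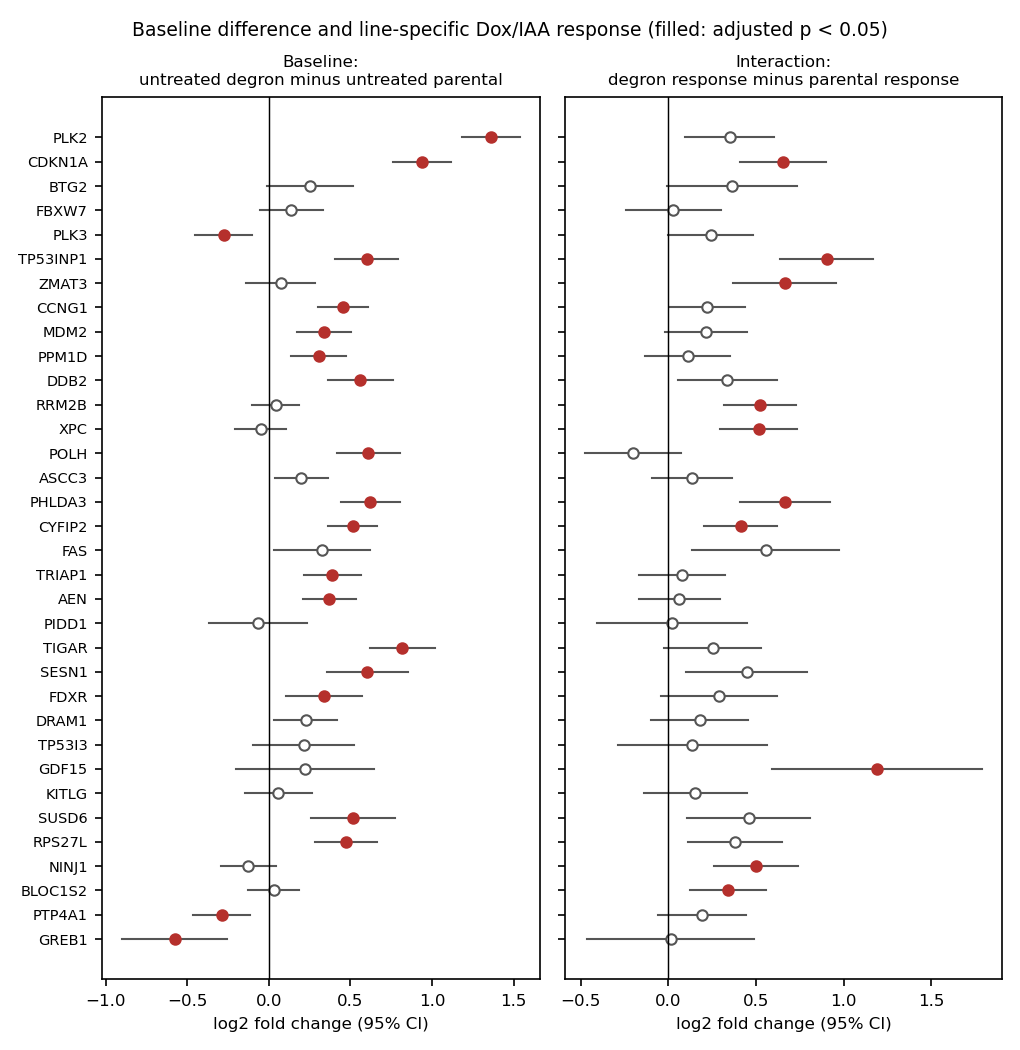
Log2 fold change with its 95% confidence interval (x axes) of the 34 tested p53 targets (rows) at baseline (left) and in the interaction of line and treatment (right), filled where the adjusted p is under 0.05. PLK2, TIGAR and POLH are filled only on the left, GDF15, ZMAT3 and XPC only on the right, and CDKN1A, TP53INP1 and PHLDA3 on both sides. The interval of PLK2 on the right (0.10 to 0.60) also lies above 0.

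Among the 5 genes of cell-cycle arrest, CDKN1A was raised both at baseline and by Dox/IAA, and PLK2 was higher at baseline but fell with Dox/IAA in both lines. CDKN1A (ENSG00000124762, chromosome 6, 36676460 to 36687339, in GRCh38 as for all genes here) encodes p21, the inhibitor of cyclin-dependent kinases through which p53 halts the cycle. It was at 254, 272 and 263 CPM in the 3 untreated parental libraries and at 258, 265 and 297 CPM in the treated ones. In the SDS22-degron line it was at 445, 516 and 551 CPM untreated and at 753, 829 and 891 CPM treated. The parental groups overlapped with each other, and both SDS22-degron groups lay above them and apart from one another. Its baseline difference was 0.94 on the log2 scale (standard error 0.0837, adjusted p = 2.58e-07). Dox/IAA changed it by 0.06 in parental cells (95% confidence interval -0.12 to 0.23) and raised it by 0.71 in the SDS22-degron line. The interaction was 0.65, standard error 0.117, adjusted p = 0.0011. Between the treated lines the difference reached 3.01-fold, of which the larger share on the log2 scale was already there at baseline.

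PLK2 (ENSG00000145632, chromosome 5, 58453982 to 58460260), a polo-like kinase that is induced by p53 and by growth signals, had the largest baseline difference of the 34 targets. It was at 147, 142 and 158 CPM in untreated and 55.2, 56.8 and 73.7 CPM in treated parental cells, and in the SDS22-degron line at 376, 371 and 401 CPM untreated and 206, 196 and 205 CPM treated. The 4 groups did not overlap, and treated SDS22-degron cells remained above untreated parental cells. The baseline was 1.36, standard error 0.0849, adjusted p = 2.31e-09. PLK2 fell by 1.27 on the log2 scale in parental cells and by 0.92 in the SDS22-degron line, and the difference between these responses did not pass edgeR's quasi-likelihood test (interaction 0.35, adjusted p = 0.0613, 95% confidence interval 0.10 to 0.60). It passed with DESeq2 (0.36, adjusted p = 0.0409) and with edgeR's likelihood ratio test (0.35, adjusted p = 0.0429). BTG2, an antiproliferative gene, rose in the SDS22-degron line (0.48, adjusted p = 0.00329), but its interaction did not pass the test (0.36, adjusted p = 0.181). PLK3, another polo-like kinase, was lower at baseline (-0.28, adjusted p = 0.017), a call that was lost without parental untreated replicate 1 (-0.20) or SDS22-degron untreated replicate 3 (-0.25). FBXW7, the substrate receptor of a ubiquitin ligase for cyclin E, passed the test in none of the 5 comparisons, with log2 fold changes between 0.03 and 0.17.

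All 5 genes that feed back on p53 had a positive baseline, a positive response in the SDS22-degron line and a positive interaction. Over all tested genes, 50.5%, 50.4% and 49.8% were positive in these 3 comparisons, which share libraries. Only TP53INP1 and ZMAT3 passed the test in the interaction, beside 6.03% of all tested genes that were higher. The interaction of PPM1D was below 0 without parental untreated replicate 2. TP53INP1 (ENSG00000164938, chromosome 8, 94925972 to 94949411) encodes a nuclear protein that promotes the phosphorylation of p53 and takes part in autophagy. It was at 34.9, 38.3 and 36.01 CPM in untreated and 47.0, 39.9 and 55.0 CPM in treated parental cells. In the SDS22-degron line it was at 55.8, 57.3 and 52.3 CPM untreated and 134, 132 and 135 CPM treated. The treated SDS22-degron libraries were close to each other and far above all others. Its baseline was 0.60, adjusted p = 8.35e-05, it rose in parental cells (0.38, adjusted p = 0.00458), and it rose by 2.43-fold in the SDS22-degron line (1.28, standard error 0.0864, adjusted p = 2.82e-09). The interaction was 0.90, standard error 0.126, adjusted p = 0.000139. The gene overlaps NDUFAF6 on the other strand, which was at 15 CPM.

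ZMAT3 (ENSG00000172667, chromosome 3, 179017223 to 179072279), an RNA-binding protein, showed the response without a called baseline difference. It was at 34.9, 42.2 and 35.8 CPM in untreated parental, 39.4, 42.1 and 43.4 CPM in treated parental and 39.9, 44.0 and 34.9 CPM in untreated SDS22-degron cells, 3 groups that overlapped. Treated SDS22-degron cells had 62.9, 77.5 and 67.7 CPM, above every other library. Its baseline was 0.07, adjusted p = 0.636, and its interaction was 0.66, standard error 0.140, adjusted p = 0.0037. At baseline, the 939 tested genes of chromosome 3, where ZMAT3 and XPC lie, had a median log2 fold change of -0.27, and in the interaction their median was 0.01. The baseline medians of chromosomes 16, 1, 8 and 15 were -0.30, -0.13, -0.11 and -0.10. Those of the other autosomes and X lay between -0.01 and 0.11. The part of these shifts in the baseline of ZMAT3, XPC and the targets on the other shifted chromosomes, such as PLK3 on chromosome 1, was not tested.

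MDM2 (ENSG00000135679, chromosome 12, 68808176 to 68850686), the ubiquitin ligase that degrades p53 and is itself a p53 target, was at 186, 226 and 185 CPM in untreated and 196, 208 and 202 CPM in treated parental cells. In the SDS22-degron line it was at 249, 267 and 238 CPM untreated and 305, 308 and 273 CPM treated. As for CDKN1A, the parental groups overlapped and both SDS22-degron groups lay above them and apart, but in smaller steps. Its baseline was 0.34, standard error 0.0786, adjusted p = 0.00347. It rose by 0.23 in the SDS22-degron line (adjusted p = 0.0182). This call was lost without any of SDS22-degron untreated replicates 1 (0.22) or 3 (0.20) or SDS22-degron Dox/IAA replicates 1 (0.20) or 2 (0.20). The interaction was 0.21, adjusted p = 0.213, with a 95% confidence interval of -0.02 to 0.45. CCNG1, cyclin G1, which recruits PP2A to MDM2 and has a pseudogene with reads (CCNG1P1), was higher at baseline (0.45, adjusted p = 0.000135) and rose in the SDS22-degron line (0.22, adjusted p = 0.0184), the latter not without SDS22-degron untreated replicate 3 (0.15) or SDS22-degron Dox/IAA replicate 2 (0.17). PPM1D, the phosphatase WIP1 that dephosphorylates p53 and its kinases, was higher at baseline (0.31, adjusted p = 0.00834), with a response of 0.12, adjusted p = 0.22 in the SDS22-degron line.

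Of the 5 genes of DNA repair and nucleotide supply, RRM2B and XPC rose with Dox/IAA in the SDS22-degron line, beside 26% of all tested genes. DDB2 and POLH were higher at baseline, beside 13.2%, and did not pass the test for a response in the SDS22-degron line. Among 5 genes, these counts do not set this role apart from these shares. RRM2B (ENSG00000048392, chromosome 8, 102204502 to 102239118) encodes the p53-induced small subunit of ribonucleotide reductase. It was at 93.2, 98.2 and 86.5 CPM in untreated and 107, 109 and 116 CPM in treated parental cells, and at 96.0, 99.5 and 90.4 CPM in untreated and 162, 174 and 155 CPM in treated SDS22-degron cells. The untreated groups overlapped, the treated parental libraries were above them, and the treated SDS22-degron libraries were highest. It rose in parental cells (0.26, adjusted p = 0.00856) and more in the SDS22-degron line (0.78, adjusted p = 4.42e-08), and the interaction was 0.52, standard error 0.0969, adjusted p = 0.00141.

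XPC (ENSG00000154767, chromosome 3, 14145147 to 14178783), which recognises damaged DNA in nucleotide excision repair, was at 61.5, 59.1 and 67.0 CPM in untreated parental, 60.2, 56.3 and 64.4 CPM in treated parental and 62.9, 55.4 and 62.8 CPM in untreated SDS22-degron cells. It was at 82.8, 83.9 and 82.7 CPM in treated SDS22-degron cells. Only this last group stood apart, and its interaction was 0.51, standard error 0.105, adjusted p = 0.00287. XPC overlaps LSM3 on the other strand, which was at 37 CPM. The libraries were made with a stranded kit, but the strand setting of the read counting is not given in the sources used here, so that reads of genes overlapping on opposite strands may not be separated.

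POLH (ENSG00000170734, chromosome 6, 43576150 to 43615660), the translesion polymerase eta, was at 23.9, 29.3 and 25.1 CPM in untreated and 25.3, 30.9 and 26.2 CPM in treated parental cells, and in the SDS22-degron line at 38.5, 40.4 and 40.6 CPM untreated and 36.7, 34.9 and 37.6 CPM treated. The lines did not overlap, and the treated SDS22-degron libraries lay below the untreated ones, a response that did not pass the test (-0.13, adjusted p = 0.236). Its baseline was 0.61, standard error 0.0927, adjusted p = 7.93e-05, and its interaction of -0.20 (95% confidence interval -0.48 to 0.07) was the only one below 0. POLH overlaps GTPBP2 on the other strand (48.5 CPM). DDB2, which binds damaged DNA ahead of XPC, was higher at baseline (0.56, adjusted p = 0.000204) and fell in parental cells (-0.49, adjusted p = 0.00103). Its response in the SDS22-degron line was -0.16, adjusted p = 0.165. ASCC3, a helicase in alkylation repair, fell in parental cells (-0.26, adjusted p = 0.0163), but not without parental untreated replicate 1 (-0.24), parental Dox/IAA replicate 1 (-0.19) or parental Dox/IAA replicate 3 (-0.25), nor when scaled by library size only (-0.20).

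Of 7 genes linked to cell death, 6 were tested. In the SDS22-degron line PHLDA3 and CYFIP2 rose, beside 26% of all tested genes, and AEN and TRIAP1 fell, beside 25.5%. PHLDA3 (ENSG00000174307, chromosome 1, 201464383 to 201469237), a repressor of the kinase AKT, was at 26.5, 32.1 and 33.0 CPM in untreated and 27.3, 28.4 and 29.5 CPM in treated parental cells. It was at 44.5, 48.8 and 47.7 CPM in untreated and 66.8, 66.0 and 74.8 CPM in treated SDS22-degron cells. As for CDKN1A, the parental groups overlapped and the SDS22-degron groups lay above them in 2 separate steps. The baseline was 0.62, adjusted p = 3.48e-05, the response 0.56, adjusted p = 1.87e-05, and the interaction 0.66, standard error 0.123, adjusted p = 0.00139.

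CYFIP2 (ENSG00000055163, chromosome 5, 157266079 to 157395595), a subunit of the WAVE complex that p53 induces, was at 105, 108 and 119 CPM in untreated and 119, 105 and 120.5 CPM in treated parental cells, and in the SDS22-degron line at 152, 158 and 163 CPM untreated and 211, 230.1 and 212 CPM treated. It followed the same steps, with a baseline of 0.51, adjusted p = 2.95e-05 and an interaction of 0.41, standard error 0.0993, adjusted p = 0.00885. It overlaps ADAM19 on the other strand, which was at 171 CPM. AEN, a nuclease of apoptotic DNA fragmentation, was higher at baseline (0.37, adjusted p = 0.00148) and fell in both lines, by 0.32 in parental and by 0.26 in SDS22-degron cells (adjusted p = 0.00457 and 0.00869). The latter was lost without SDS22-degron Dox/IAA replicate 2 (-0.21, adjusted p = 0.0523), and the AEN interaction was 0.06, adjusted p = 0.759. TRIAP1, which restrains apoptosis at mitochondria, had the same pattern, with a baseline of 0.39, adjusted p = 0.00161 and an interaction of 0.08, adjusted p = 0.711. Its fall in parental cells (-0.29) was lost without parental untreated replicate 2 (-0.25) or 3 (-0.26). Its fall in the SDS22-degron line (-0.21) was lost without SDS22-degron untreated replicate 1 (-0.23) or 2 (-0.16), without SDS22-degron Dox/IAA replicate 3 (-0.18), and with DESeq2 (-0.21) or other scalings.

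FAS, the death receptor on the cell surface, had an interaction that did not pass the test (0.55, adjusted p = 0.0713), with 27.6 ± 6.49 CPM in treated SDS22-degron and 14.99 ± 2.42 CPM in treated parental cells (SD, n = 3 each). It was higher between the treated lines (0.88, adjusted p = 5.81e-05), and it overlaps ACTA2 on the other strand (9.75 CPM). PIDD1, a death domain protein that activates caspase-2, passed the test in no comparison, with log2 fold changes from -0.07 to 0.02, and it overlaps the ribosomal protein gene RPLP2 on the other strand (430 CPM). EDA2R, a receptor of the TNF family, had 1 read in parental Dox/IAA replicate 1, 1 read in SDS22-degron Dox/IAA replicate 2 and 0 in the other libraries, under the 3 reads taken as the limit of detection. A difference in EDA2R could not be detected at this depth.

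Of the 6 genes of metabolism, redox control and autophagy, 5 were tested. At baseline 3 of the 5 were higher (median of the 5, 0.34), beside 13.2% of all tested genes. In the SDS22-degron line 3 rose (median 0.44), beside 26%. In the interaction 0 passed edgeR's test (1 at an unadjusted p under 0.05, 0 with DESeq2), beside 6.03% of all tested genes higher and 8.35% lower. Among 5 genes, a count of 0 does not set this role apart from these shares. TIGAR (ENSG00000078237, chromosome 12, 4307763 to 4354593), which lowers fructose-2,6-bisphosphate and so slows glycolysis, was at 23.1, 28.1 and 23.1 CPM in untreated and 28.5, 31.1 and 26.5 CPM in treated parental cells. It was at 42.8, 43.0 and 45.2 CPM in untreated and 57.1, 57.1 and 66.8 CPM in treated SDS22-degron cells. The lines did not overlap. The baseline was 0.82, standard error 0.0949, adjusted p = 5.12e-06, the response in the SDS22-degron line 0.47, adjusted p = 0.000253, and the interaction 0.25, adjusted p = 0.218. SESN1, a sestrin that restrains mTORC1, was similar, with a baseline of 0.60, adjusted p = 0.000854, a response of 0.47, adjusted p = 0.00179 in the SDS22-degron line and an interaction of 0.45, adjusted p = 0.0806.

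FDXR, the mitochondrial ferredoxin reductase, was higher at baseline (0.34, adjusted p = 0.0299), but not without parental untreated replicates 1 (0.24) or 3 (0.33), nor without any of the SDS22-degron untreated replicates 1 (0.35), 2 (0.32) or 3 (0.33). TP53I3, a quinone oxidoreductase, rose in the SDS22-degron line (0.44, adjusted p = 0.0137), but not without SDS22-degron untreated replicate 1 (0.31) or SDS22-degron Dox/IAA replicate 2 (0.25). DRAM1, a lysosomal protein of autophagy, was called only between the treated lines (0.40, adjusted p = 0.00193). SPATA18, which takes part in mitochondrial quality control, was below the filter, with 1, 2 and 1 reads in untreated and 1, 2 and 0 reads in treated parental libraries. It had 10, 11 and 7 reads in untreated and 8, 9 and 10 reads in treated SDS22-degron libraries. All 6 SDS22-degron libraries thus had more SPATA18 reads than any parental library, and its counts with and without Dox/IAA overlapped within each line.

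GDF15 (ENSG00000130513, chromosome 19, 18374731 to 18389176), a secreted stress cytokine, had the largest interaction of the 34 targets and also the largest standard error. It was at 661, 381 and 439.5 CPM in untreated and 366, 252 and 532 CPM in treated parental cells. It was at 537, 585 and 603 CPM in untreated and 871, 1026 and 1163 CPM in treated SDS22-degron cells. Only the treated SDS22-degron group stood above all other libraries, since 1 untreated parental library reached 661 CPM. The response was -0.37, adjusted p = 0.181 in parental and 0.83, adjusted p = 0.00216 in SDS22-degron cells, and the interaction was 1.19, standard error 0.285, adjusted p = 0.00866. Without parental untreated replicate 1 the interaction was 0.92 (adjusted p = 0.0288), and over all alternatives it lay between 0.92 and 1.503. Per kilobase of annotated length, GDF15 had the highest level of the targets in untreated parental cells (237 CPM per kb), followed by KITLG (179) and CDKN1A (86.2), and in treated SDS22-degron cells CDKN1A (270.2) was above KITLG (168). KITLG, the ligand of the receptor KIT, fell in parental cells (-0.30, adjusted p = 0.0273). That call was lost without parental untreated replicates 1 (-0.25) or 2 (-0.28), without parental Dox/IAA replicates 1 (-0.28) or 2 (-0.21), when scaled by library size only (-0.24), and when only the groups compared were fitted (-0.30).

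The 6 remaining targets have no shared role. SUSD6 (ENSG00000100647, chromosome 14, 69611596 to 69715142), a membrane protein, was at 16.6, 19.6 and 17.6 CPM in untreated and 27.7, 19.8 and 22.7 CPM in treated parental cells, and in the SDS22-degron line at 22.1, 26.6 and 28.0 CPM untreated and 47.2, 42.2 and 48.5 CPM treated. The treated SDS22-degron libraries were above all others, and the treated parental libraries overlapped with the untreated SDS22-degron ones. SUSD6 was higher at baseline (0.51, adjusted p = 0.00381) and rose in both lines, by 0.39 in parental and 0.85 in SDS22-degron cells, with an interaction of 0.46, adjusted p = 0.0753. Its rise in parental cells was lost without parental untreated replicates 1 (0.33) or 3 (0.37) or parental Dox/IAA replicate 1 (0.25).

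NINJ1 (ENSG00000131669, chromosome 9, 93121489 to 93134288), which ruptures the plasma membrane during lytic cell death, was at 34.5, 34.4 and 38.2 CPM in untreated parental, 31.7, 30.6 and 33.6 CPM in treated parental and 32.0, 33.7 and 32.3 CPM in untreated SDS22-degron cells. It was at 40.0, 39.2 and 44.8 CPM in treated SDS22-degron cells, above all other libraries, with an interaction of 0.50, standard error 0.114, adjusted p = 0.00632. BLOC1S2 (ENSG00000196072, chromosome 10, 100273280 to 100286712), a subunit of a complex of lysosomal positioning, was at 67.8, 70.2 and 64.2 CPM in untreated parental, 61.1, 71.0 and 63.6 CPM in treated parental, 65.5, 72.2 and 68.5 CPM in untreated SDS22-degron and 83.5, 89.3 and 80.0 CPM in treated SDS22-degron cells. The last group was again the highest, but the BLOC1S2 interaction (0.34, standard error 0.104, adjusted p = 0.0336) was the least firm of the 10. It was lost in 10 of 22 alternatives, with adjusted p between 0.00495 and 0.105, among them 8 fits that left out a library, with interactions of 0.28 to 0.34. These libraries were parental untreated replicates 1 and 2, parental Dox/IAA replicates 1 and 3, SDS22-degron untreated replicates 1 and 3, and SDS22-degron Dox/IAA replicates 1 and 2.

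RPS27L, a ribosomal protein-like gene that overlaps LACTB on the other strand (13.3 CPM), was higher at baseline (0.47, adjusted p = 0.000731) and rose in the SDS22-degron line (0.26, adjusted p = 0.0191), the latter not without SDS22-degron untreated replicates 1 (0.25) or 3 (0.21) or SDS22-degron Dox/IAA replicate 2 (0.18). GREB1, known as a target of the estrogen receptor, was lower at baseline (-0.58, adjusted p = 0.00819) and between the treated lines (-0.56, adjusted p = 0.00894). The first call was lost without parental untreated replicate 1 (-0.37) and the second without SDS22-degron Dox/IAA replicate 3 (-0.44). PTP4A1, a tyrosine phosphatase with several pseudogenes of the same name, was lower at baseline (-0.29, adjusted p = 0.0147), but not without parental untreated replicate 2 (-0.17) or SDS22-degron untreated replicate 3 (-0.23). It fell in parental cells (-0.35, adjusted p = 0.0044).

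**Figure D3:**
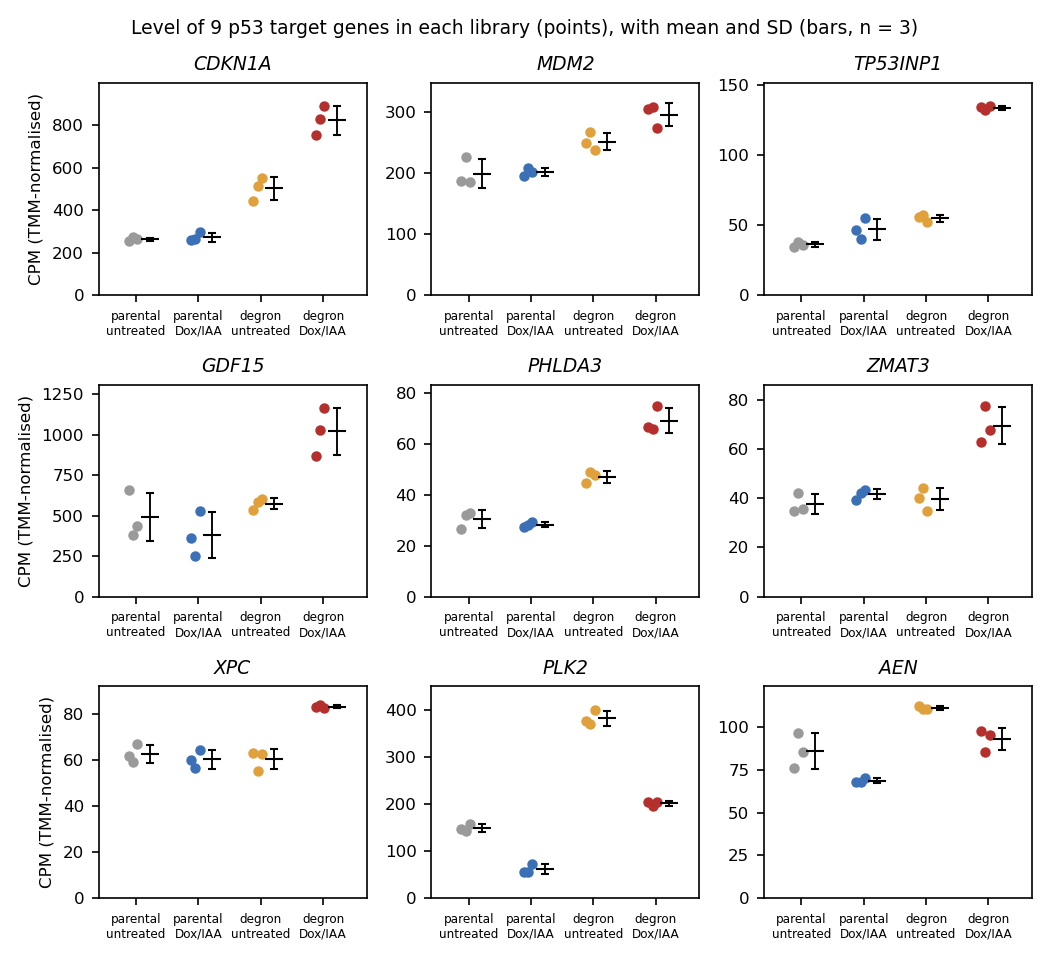
TMM-normalised CPM (y axes, from 0) of 9 p53 targets in the 4 groups, with a point per library and the mean and SD of 3 libraries beside them. CDKN1A and PHLDA3 step up at baseline and again with Dox/IAA, ZMAT3 and XPC rise only in treated SDS22-degron cells, and PLK2 and AEN are high at baseline and fall with Dox/IAA in both lines.

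**Figure D4:**
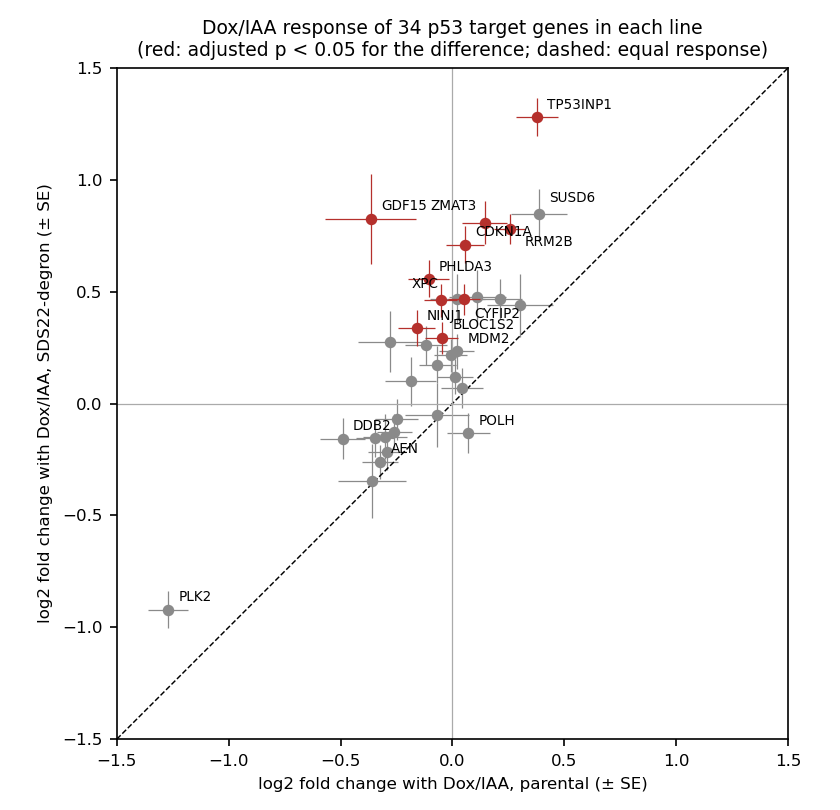
Log2 fold change with Dox/IAA (point, ± standard error) of the 34 tested p53 targets in the parental line (x axis) and in the SDS22-degron line (y axis), with the 10 targets called in the interaction in red. All points but POLH lie above the dashed line of equal response.

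The targets can be sorted by whether the baseline, the interaction or both were called. CDKN1A, TP53INP1, PHLDA3 and CYFIP2 were called in both. ZMAT3, RRM2B, XPC, GDF15, NINJ1 and BLOC1S2 were called in the interaction and not at baseline. The 13 others that were higher at baseline, such as PLK2, TIGAR, POLH, SESN1 and DDB2, had interactions that did not pass edgeR's quasi-likelihood test, which does not show that their responses in the lines were equal. With DESeq2, PLK2 and RPS27L passed. For DDB2, as an example, the 95% confidence interval of the interaction ran from 0.05 to 0.62.

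A separate list holds 21 regulators of p53, which are upstream factors, cofactors and homologs and include none of the 36 targets. MDM4, the partner of MDM2 in holding p53 inactive, was lower at baseline (-0.33, adjusted p = 0.00804), with an interaction of 0.03 (adjusted p = 0.91). Of its 20 tested genes, 1 was higher and 7 were lower at baseline, beside 13.2% and 15% of all tested genes. In the interaction 0 were higher by edgeR (1 at an unadjusted p under 0.05, 0 with DESeq2) and 4 were lower, beside 6.03% and 8.35% of all tested genes, with a median of 0.04. The 4 are the DNA damage kinases CHEK1 (-0.83, adjusted p = 0.000235) and CHEK2 (-0.70, adjusted p = 0.00646), the p53 homolog TP73 (-0.68, adjusted p = 0.000171) and the deubiquitinase USP7 (-0.28).

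A list of 20 further p53 targets, 19 of them tested, moved in both directions. In the interaction 6 were higher and 2 were lower, beside 6.03% and 8.35% of all tested genes, with a median of 0.24. At baseline 5 were higher and 4 were lower, beside 13.2% and 15%, with a median of 0.10. Those higher in the interaction were SESN2, a sestrin (1.52, adjusted p = 0.00675), BBC3, which encodes the proapoptotic PUMA (1.44, adjusted p = 7.6e-05), GADD45A, a growth arrest gene (1.26, adjusted p = 0.000325), the TRAIL receptors TNFRSF10C (0.62) and TNFRSF10B (0.55), and PERP (0.39). BBC3 was at 36.1, 35.7 and 43 CPM in untreated parental, treated parental and untreated SDS22-degron cells and rose to 115.6 CPM with Dox/IAA in the latter. SESN2 and GADD45A, in contrast, were lower at baseline and fell with Dox/IAA in parental cells (-0.80 and -0.61). Their means in treated SDS22-degron cells, 53.2 and 53.6 CPM, were thus not above those of untreated parental cells, 58.1 and 54.2 CPM. Those lower in the interaction were E2F7, a repressor of cell-cycle genes (-0.82), and SFN, the 14-3-3 protein sigma (-0.49).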

How the data were processed

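RNA of 12 HCT116 cultures in 4 groups of 3 was sequenced as poly-A selected, stranded libraries with single reads. As deposited by the authors, the values are counts, whole numbers of reads on each gene, and no scaling was applied to them. The authors also give the GC content of each gene as a percent, which served only for the GC correction. The submitters' processing notes name GRCh38, cutadapt 1.15, Bowtie2 2.3.3.1, STAR 2.5.2b, SAMtools 1.5 and featureCounts 1.5.3, and the annotation release and the strand setting of the counting are not given in the sources used here. Groups were taken from the sample labels, and 0 columns were left unmapped. Between replicates of a group, chi-square values per degree of freedom were 2.16 to 9.73, above counting noise.

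Genes were filtered with filterByExpr (minimum count 10), which left 16657, scaled with TMM and tested with the quasi-likelihood F test of edgeR 4.0.16 in R 4.3.3, in 1 fit of all 12 libraries with 4 group means. The study's methods do not name a replicate term, and none was used. Adjusted p are Benjamini-Hochberg values over all 16657 genes, and the threshold was 0.05. CPM are TMM-normalized, and log2 CPM used a prior count of 2. The F statistic and the fold change gave the standard errors and 95% confidence intervals. The median standard error was 0.11 between 2 groups and 0.156 in the interaction. The biological coefficient of variation was 7.48%. The procedure was tested on simulated data.

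The 36 genes, their roles and the other lists were chosen with earlier results of these data known, and 1 gene of these other lists is not reported here. Values in every library are given for the targets called in the interaction, for the 5 called targets with the largest absolute log2 fold changes at baseline and in the SDS22-degron response, and for CDKN1A and MDM2. As alternatives, DESeq2 1.42.0 and the likelihood ratio test were run, besides other scalings and filters, the replicate number as a block, a GC correction per library, only the groups compared, and each library left out in turn. Sequences are from RefSeq promoters.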

Additional observations from a re-analysis of the deposited data

Results flagged for a closer look

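The response to Dox/IAA differed between the SDS22-degron and the parental line, by the test of the interaction, for 10 of the 34 tested p53 targets, all in the same direction. The differences between the responses, on the log2 scale, were 1.19 for GDF15, 0.90 for TP53INP1, 0.66 for ZMAT3, 0.66 for PHLDA3, 0.65 for CDKN1A, 0.52 for RRM2B, 0.51 for XPC, 0.50 for NINJ1, 0.41 for CYFIP2 and 0.34 for BLOC1S2. In 9 of these, all but BLOC1S2, the call was kept in each of 22 alternatives.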

How the results depend on the processing

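Of 89 calls of a p53 target in the 5 comparisons, 73 were kept in every alternative, and 0 changed direction. Over 2037 alternative values of these calls, 1983 stayed on the same side of the threshold and 54 lost it. The calls lost in the interaction were those of BLOC1S2 only. With the study's cut-off (unadjusted p under 0.05, absolute log2 fold change above 1) in place of the adjusted p, the targets called higher and lower numbered 1 and 0 at baseline, 0 and 1 in the parental response, 1 and 0 in the response of the SDS22-degron line, and 7 and 0 between the treated lines, and 1 was higher in the interaction. With each library left out in turn, between 1 and 3 targets were lower at baseline and between 0 and 1 between the treated lines. The counts were lowest without parental untreated replicate 1 or SDS22-degron untreated replicate 3 (both 1, beside 11.6% and 12% of all tested genes). Between the treated lines the lowest count was found without SDS22-degron Dox/IAA replicate 3 (0, beside 20%). The median baseline of the targets was 0.41 without parental untreated replicate 2, where 26 of 34 targets lay above the mean of their group. The median interaction was 0.23 without parental Dox/IAA replicate 1.

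The groups share replicate numbers, but the labels do not say that a number marks a shared day or batch. Of 18 pairs of libraries with the same number, 7 deviated from their group means with a correlation over 0.1 (range -0.06 to 0.25), and each of the 12 libraries had its highest mean correlation with its own number, which is a hint from the data. For 11 of the 12 the highest single correlation was also with its own number, and for SDS22-degron untreated replicate 1 it was with another. With the replicate block, 20 targets were higher at baseline, 19 rose in the SDS22-degron line and 13 had a higher interaction, beside 15.3%, 27.7% and 8.39% of all tested genes. The 3 that gained a call in the interaction were FAS (adjusted p = 0.0107), PLK2 (0.0145) and RPS27L (0.00786). With the replicate block and a GC correction together, 5 targets rose in parental cells, beside 18.3% of all tested genes, instead of 3, beside 15.9%. At this depth and with 3 libraries per group, the median standard error of an interaction was 0.156, which is not the smallest difference that can be called. In the main fit, interactions of 0.55 for FAS, 0.46 for SUSD6 and 0.45 for SESN1 did not pass edgeR's quasi-likelihood test (adjusted p = 0.0713, 0.0753 and 0.0806). Differences between the responses of this size or smaller may thus go uncalled.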
